A study of Mus musculus with 12 samples.

Results

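The 10 genes described here encode the subunits of the transcription factor NF-kB and feedback products, inhibitors among them, that its own activity induces. The genes are Nfkb1, Nfkb2, Rel, Rela, Relb, Nfkbia, Nfkbiz, Tnfaip3, Tnfaip2 and Traf1. Their chromatin accessibility was taken from ATAC-seq, in which a transposase cuts open DNA, in 6 sorted mouse myeloid populations. A peak was counted for a gene when its centre lay in the gene, or when the gene was the nearest protein-coding gene within 100 kb. Peaks of the 6 lists that overlapped were merged into regions, and 188 of the 95372 regions at protein-coding genes belonged to these 10 genes, out of 21900 protein-coding genes. A region is called held by a list when the list has a peak in it. The genes were chosen by name and not by any measured value.

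All cells came from C57BL/6J mice, with 12 libraries in 6 groups of 2. KC-H are F4/80-high, Tim4-positive Kupffer cells (resident liver macrophages) from mice on a control diet. KC-N are the same sorted type from mice on the NASH diet, which models nonalcoholic steatohepatitis. KN-RM are F4/80-high, Tim4-negative Kupffer cells from NASH-diet mice. Ly6CHi-RM and Ly6CLo-RM are CD11b-high recruited liver macrophages of NASH-diet mice with high and low Ly6C. Blood-Ly6CHi-NASH are Ly6C-high monocytes from the blood of NASH-diet mice. Of the groups, KC-H alone had the control diet. Liver cells were freed by digestion in the presence of flavopiridol and blood cells were not digested, so in any comparison with blood the tissue cannot be told apart from the isolation. Age and time on diet were not used here, and the labels do not say whether animals were pooled.

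Each group had 1 deposited peak list made from both of its libraries, so no value has a replicate error and no comparison has a p-value. A difference between lists is a difference between those lists, and it has no replicate check. Absence means that no peak passed the authors' threshold there, not that the chromatin was closed. The lists held 63501 peaks (KC-H), 50550 (KC-N), 34293 (KN-RM), 54621 (Ly6CLo-RM), 61492 (Ly6CHi-RM) and 69616 (blood). Because of these unequal lengths, counts are also given for equal-length lists, the 34293 best-scored peaks of each. Each peak has a score, an integer from the authors' pipeline; it ranks peaks within a list and does not compare heights between lists. Library depth was not used here, but the authors' normalized tag counts below 40 were whole multiples of 1 step per list (tolerance 0.06), smallest in KC-H at 0.307 and largest in Ly6CLo-RM at 0.612.

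The labels were set beside marker genes, whose peaks were summed. Those of Kupffer cells had 87 peaks in the KC-H list, 34 and 21 in the KC-N and KN-RM lists, and from 9 to 19 in the other lists. Of the 6, Clec4f, Cd5l and Marco had 18, 24 and 15 peaks in the KC-H list, 7, 13 and 7 in that of KC-N, and 5, 10 and 0 in that of KN-RM. Timd4, the gene of the sort marker Tim4, had 17 peaks in KC-H, 1 in the Tim4-positive KC-N and 0 in KN-RM. Vsig4 had 5, 2 and 1 in the F4/80-high lists and 1, 4 and 6 in Ly6CLo-RM, Ly6CHi-RM and blood, and Adgre1, the gene of F4/80, had 17 over each set of 3 lists. Monocyte markers reached 37 peaks (blood) and 36 (Ly6CHi-RM), against 16 to 25 in the others. The 4 general macrophage markers had 66 peaks in KC-H and 24 to 35 elsewhere. Over the 4 dendritic cell markers the summed peaks were 31 in Ly6CLo-RM, 25 in Ly6CHi-RM, 28 in blood and 10 to 17 in the F4/80-high lists; Flt3 alone had 11, 11 and 12 in the first 3 and 1 in each of the rest. Over the 4 endothelial markers they were 39 in KC-H and 15 to 24 elsewhere, and over the 4 hepatocyte markers 13 in blood, of which 11 were at Alb, and 1 to 3 elsewhere. The 5 T and NK cell markers had 5 to 13 peaks per list, the 4 neutrophil markers 0 to 4 and the 4 stellate cell markers 0 to 3. Most of the T and NK cell peaks were at Klrb1c, with 9, 8 and 5 in KC-H, KC-N and KN-RM. It had 9, 12 and 11 in Ly6CLo-RM, Ly6CHi-RM and blood. Cd3g, Cd8a, Ly6g and Elane had 0 peaks in every list. The part of other cell types in the results below was not tested.

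NF-kB proteins are dimers held in the cytoplasm by IkB proteins until signals from Toll-like, interleukin and tumour necrosis factor receptors lead an IkB kinase to mark IkB for destruction. The freed dimers enter the nucleus, bind kappaB sites, and switch on inflammatory genes together with their own inhibitors, which ends the response. In liver macrophages the pathway is known for driving cytokine and chemokine genes in response to bacterial products from the gut and to dying cells.

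Promoter sequences show what a peak at these genes can contain. RefSeq promoter windows (GRCm38.p6, 250 bases before to 50 bases after a start) were found for 7 of the 10 genes, in 10 windows; Nfkb1, Relb and Nfkbiz had none. The kappaB consensus, a motif of 10 letters searched on both strands, was present in 5 of these 7 genes (Rel, Nfkb2, Nfkbia, Tnfaip3 and Tnfaip2), and in 10.5% of the 17492 genes with a window. By window it was in 7 of 10, against 9.25% of all 21263 windows. Windows 2 and 3 of Nfkb2, numbered by position, overlap and share the match at chr19:46305705-46305714, which is thus counted in both. A looser form of the motif that fixes only its outer letters, and so contains every kappaB match, was in 9 of the 10 windows and in 57.0% of all, a common pattern in promoters at large. TGANTCA, the letters bound by AP-1, was in 2 of the 10 windows (Nfkb2 and Tnfaip3) and in 6.99% of all, and GAGGAAG, a core bound by PU.1 and other ETS factors, in 1 (Rel) and in 13.6%. A match is a description of the letters and not evidence of binding. The matches are shown 5′ to 3′ on the gene's strand, with the kappaB match, or 2 overlapping matches, in capitals. They are shown because the peak summits of different populations lay on different sides of some of them.
Rel, chr11:23771051-23771061, minus strand: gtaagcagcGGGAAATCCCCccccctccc
Nfkb2, chr19:46304698-46304708, plus strand: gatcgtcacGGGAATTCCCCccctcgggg
Nfkb2, chr19:46304726-46304735, plus strand: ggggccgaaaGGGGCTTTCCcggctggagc
Nfkb2, chr19:46305459-46305468, plus strand: tccgacggcaGGAATGTCCCcacaaaagcc
Nfkb2, chr19:46305705-46305714, plus strand: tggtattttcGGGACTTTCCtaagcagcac
Nfkbia, chr12:55492667-55492676, minus strand: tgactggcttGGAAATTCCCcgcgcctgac
Tnfaip3, chr10:19015526-19015535, minus strand: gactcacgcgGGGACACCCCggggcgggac
Tnfaip3, chr10:19015413-19015422, minus strand: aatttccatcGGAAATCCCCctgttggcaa
Tnfaip2, chr12:111442637-111442646, plus strand: gactattttaGGAGGGCCCCtccagggtcg

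The Nfkbia match began 29 bases before the start, and the 200 bp peaks of KC-N, Ly6CLo-RM, Ly6CHi-RM and blood contained it. The centres of these peaks lay 78.5 to 91.5 bp from it, and those of KC-H and KN-RM 104.5 and 107.5 bp. The Rel match began 92 bases before the start and lay within peaks of KC-H, Ly6CLo-RM, Ly6CHi-RM and blood. At Nfkb2, the match 39 bases before the first start was inside a peak in each of the 5 liver lists and in no blood peak. Blood did have a peak in that promoter window (score 96), centred 121 bp from the match, against 70 to 91 bp in the liver lists. At Nfkbia and at this Nfkb2 match, whether a peak contained the match thus turned on small shifts of peak centres. The Nfkb2 match at chr19:46305705 was inside a peak of all 6 lists. The other Nfkb2 matches, 11 bases before the first start and 236 bases before the second, were not wholly inside any peak. At Tnfaip3 the match 125 bases before the start lay within peaks of KN-RM, Ly6CHi-RM and blood, and the one 12 bases before it in none. The Tnfaip2 match, 24 bases before the start, was inside a peak in each of the 3 F4/80-high lists and in no other list.

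Tnfaip2, a gene induced by tumour necrosis factor, had promoter peaks at 2 positions that differed between lists. Peak centres lay 4 bases before the start in KC-H (score 180), 51 bases after it in KC-N (score 111) and 13 bases after it in KN-RM (score 78). KC-N and KN-RM had a further peak centred 233 bases before the start, with scores of 112 and 77. In Ly6CLo-RM, Ly6CHi-RM and blood the nearest peak was the upstream one, centred 241, 241 and 228 bases before the start with scores of 119, 138 and 141. The KC-H list thus held the peak at the start, the CD11b-high and blood lists the upstream peak, and the NASH F4/80-high lists both. In the merged map the peak at the start, chr12:111442557-111442812, was held by the 3 F4/80-high lists and no other, and the upstream region chr12:111442320-111442533 by the 5 NASH lists and not KC-H.

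Tnfaip3 encodes a ubiquitin-editing enzyme that shuts down signalling upstream of the IkB kinase. Its outer start lay at the end of the gene, and the promoter stretch before it, chr10:19015411-19015660 on the minus strand, is printed because its summits fell on either side of the start.
Tnfaip3 promoter, bases -250 to -1: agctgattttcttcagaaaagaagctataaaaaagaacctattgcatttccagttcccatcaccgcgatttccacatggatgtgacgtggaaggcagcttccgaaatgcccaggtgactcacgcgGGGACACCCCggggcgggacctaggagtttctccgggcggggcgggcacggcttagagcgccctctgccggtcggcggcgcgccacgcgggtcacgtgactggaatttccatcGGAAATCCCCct
Peaks were centred 99, 113 and 119 bases after the start in KC-H, KC-N and Ly6CLo-RM, with scores of 127, 100 and 79. In Ly6CHi-RM and blood they were centred 113 and 118 bases before it, with scores of 92 and 87. KN-RM had both, at 112 bases after (score 57) and 146 bases before (score 41). The Ly6CHi-RM and Ly6CLo-RM summits were 232 bp apart, which is why this promoter counts as list-specific in both directions below.

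Nfkbia encodes IkB-alpha, the inhibitor that is rebuilt first after NF-kB activation. The promoter of Nfkbia was held by every list at nearly 1 position, and its stretch chr12:55492648-55492897, minus strand, is shown for contrast with Tnfaip3.
Nfkbia promoter, bases -250 to -1: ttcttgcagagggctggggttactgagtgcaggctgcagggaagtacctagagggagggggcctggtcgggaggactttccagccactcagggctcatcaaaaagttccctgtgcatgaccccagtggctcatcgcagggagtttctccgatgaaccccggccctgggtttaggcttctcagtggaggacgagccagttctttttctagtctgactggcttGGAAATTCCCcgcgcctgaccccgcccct
The peak centres lay 129 (KC-H), 116 (KC-N), 132 (KN-RM), 106 (Ly6CLo-RM), 113 (Ly6CHi-RM) and 103 (blood) bases before the start, with scores of 179, 103, 79, 153, 148 and 149. Rela, the main activating subunit, was alike in this, with centres from 94 (Ly6CHi-RM) to 137 (Ly6CLo-RM) bases before its start. Rel, the subunit c-Rel of haematopoietic cells, was not: its centres were 45 bases before the start in KC-H, 72 and 63 bases after it in KC-N and KN-RM, 175 and 110 bases before it in Ly6CLo-RM and blood, and on both sides in Ly6CHi-RM, 123 bases after and 169 before. No list had a peak in the promoter window of Traf1 (chr2:34961723-34962022), which encodes an adaptor of tumour necrosis factor receptors. A region inside the gene, chr2:34961485-34961720, ended just short of that window and was held by KC-N, Ly6CLo-RM and blood.

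**Figure D1:**
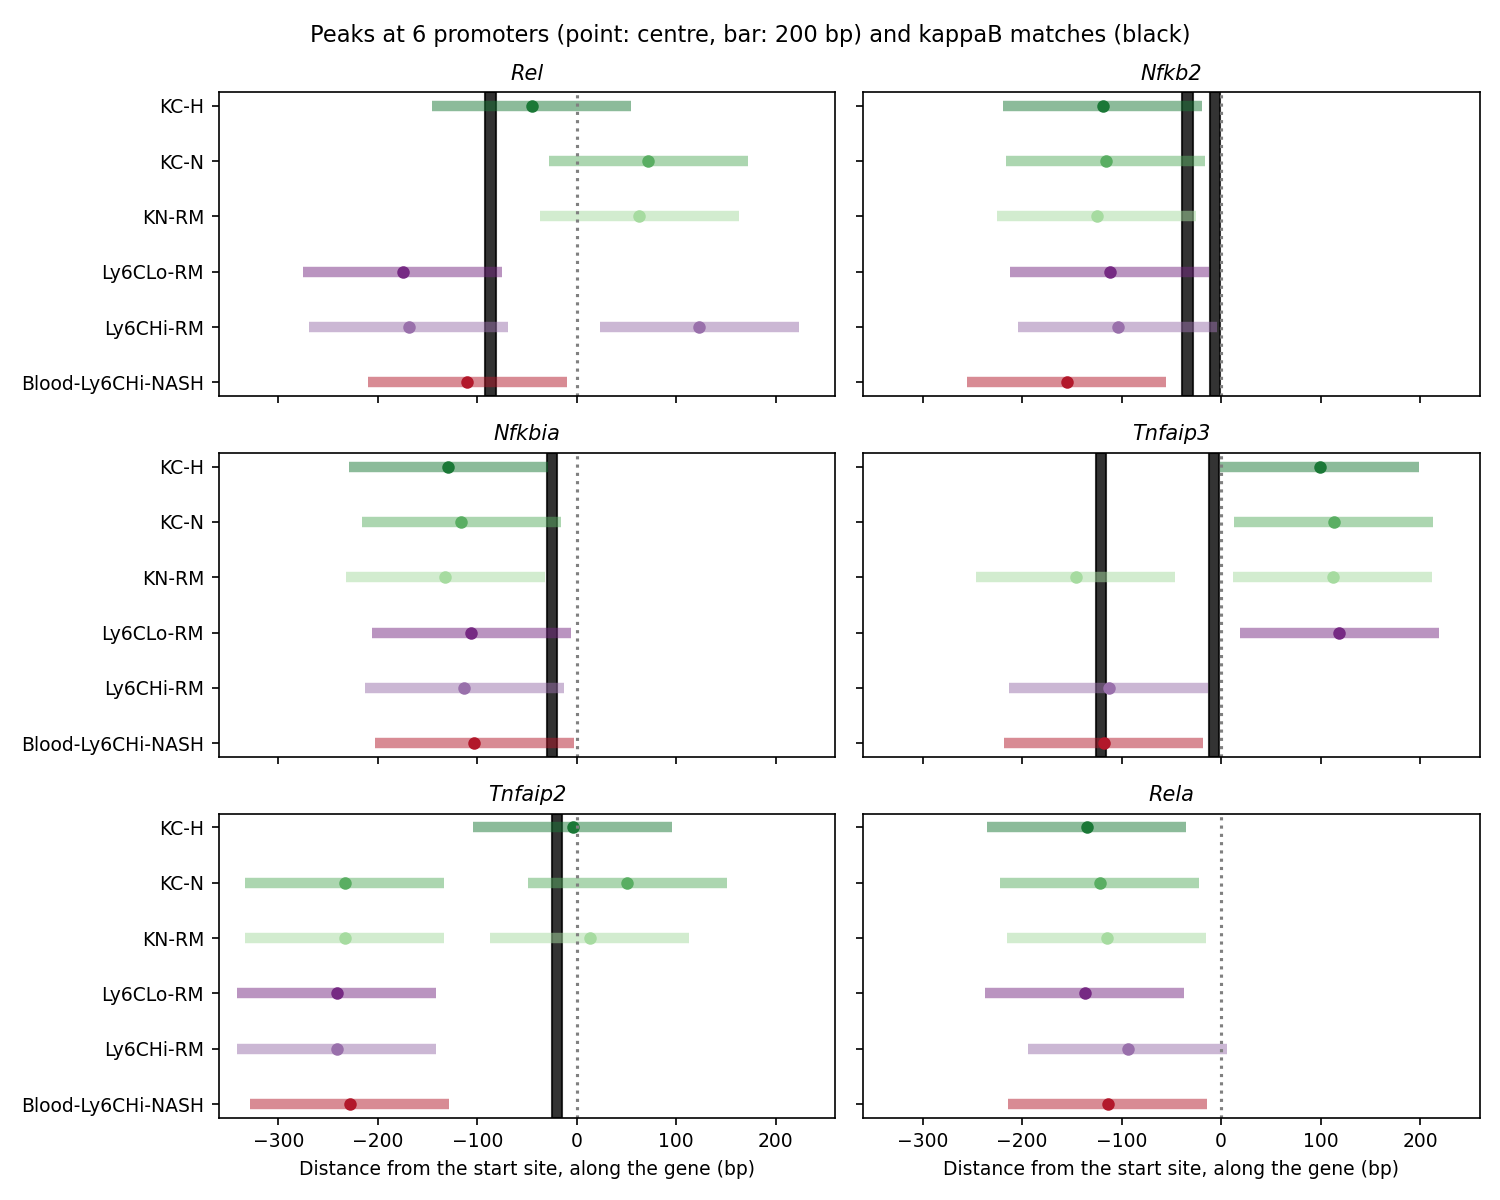
Peaks that overlap the RefSeq promoter windows of Rel, Nfkb2, Nfkbia, Tnfaip3, Tnfaip2 and Rela in the 6 lists, as bars over the distance from the transcription start in bp, with kappaB matches marked. At Tnfaip2 the 3 F4/80-high lists have a bar over the start and the 5 NASH lists one upstream, while at Nfkbia the 6 bars lie at nearly the same place.

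The 10 genes had 113 peaks in KC-H, 111 in KC-N, 82 in KN-RM, 139 in Ly6CLo-RM, 115 in Ly6CHi-RM and 97 in blood. Per 1000 peaks of each list this was 1.78, 2.20, 2.39, 2.54, 1.87 and 1.39. Ly6CLo-RM was thus the highest and blood the lowest, although blood had the longest list. In equal-length lists the counts were 71, 77, 82, 94, 61 and 49, and blood was again lowest and Ly6CLo-RM highest. Peaks at these genes had scores from 24 to 242 in KC-H, 18 to 153 in KC-N, 18 to 105 in KN-RM, 16 to 195 in Ly6CLo-RM, 18 to 182 in Ly6CHi-RM and 18 to 166 in blood. Their medians, 50, 42, 37.5, 40, 44 and 47, stood beside list medians of 48, 38, 34, 40, 46 and 46.

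The subunit genes Rela, Relb and Nfkb2 were nearly level across the lists. Rela had 6 peaks in KC-H, 4 in KC-N, 4 in KN-RM, 5 in Ly6CLo-RM, 4 in Ly6CHi-RM and 5 in blood, in 6 regions of which 4 were held by all lists (gene at chr19:5637442-5648134). Relb, a subunit of the noncanonical branch, had 3 peaks in every list but KN-RM, which had 2 (chr7:19606217-19629438). Nfkb2, whose precursor is processed into the partner of RelB, had 5 peaks in KC-H and KN-RM and 4 in the others (chr19:46300994-46312400). The peaks of Relb were few, but the region chr7:19628569-19628912, inside the gene near one end, carried the highest score of all 10 genes in each list, tied with Nfkbiz in Ly6CHi-RM, 242, 153, 105, 195, 182 and 166 in the order KC-H, KC-N, KN-RM, Ly6CLo-RM, Ly6CHi-RM and blood.

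Rel had 8, 7, 6, 7, 8 and 7 peaks in the same order (chr11:23736847-23770969), in 10 regions of which 4 were held by all lists and 3 by 1 list. One region inside the gene, chr11:23754378-23754597, was held by the 5 liver lists, with scores of 54, 66, 40, 62 and 50, and not by blood. Nfkb1, whose precursor is processed into the partner of RelA, was the longest of the genes at 107 kb (chr3:135584655-135691969), and 22 of its 29 regions lay within it. It had 13 peaks in KC-H, 18 in KC-N, 11 in KN-RM, 22 in Ly6CLo-RM, 20 in Ly6CHi-RM and 23 in blood. Each CD11b-high or blood count was above each F4/80-high count, as at 1193 of 5862 genes with 5 or more peaks in any list (20.4%). Of the 9 genes here with that many peaks it was the only one, and 0 had the reverse order (2.78% of all). In equal-length lists the Nfkb1 counts were 10, 10, 11, 15, 11 and 9, the groups overlapped, and 0 of the 9 genes had this order (14.2%).

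Inside Nfkb1, 2 regions were held by all NASH lists with unlike ranks. At chr3:135594329-135594552 the scores were 100, 88 and 87 in Ly6CLo-RM, Ly6CHi-RM and blood, 21 in KC-N and 22 in KN-RM, and KC-H had no peak. At chr3:135637724-135637948 they were 67, 83 and 102, then 29 and 28, again with no peak in KC-H. In KC-N and KN-RM these peaks lay below the list medians of 38 and 34, and in the other 3 lists above theirs. The region chr3:135612834-135613069 was the other way round, held by the 3 F4/80-high lists with scores of 61, 78 and 28 and by no other.

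Nfkbia and Nfkbiz, which encode IkB family proteins, both had the most peaks in Ly6CLo-RM. Nfkbia, a gene of 3.24 kb (chr12:55489409-55492647), had 19 peaks in KC-H, 14 in KC-N, 8 in KN-RM, 22 in Ly6CLo-RM, 14 in Ly6CHi-RM and 11 in blood. Of its 29 regions, 25 lay outside the gene, 12 were held by 1 list and 7 by all. Its equal-length counts were 7, 12, 8, 15, 9 and 7, with Ly6CLo-RM still highest and KC-H now level with blood. A stretch of 5.50 kb on the 3′ side of the gene, chr12:55480461-55485957, held 9 of its regions; Ly6CLo-RM had a peak in all 9, KC-H and Ly6CHi-RM in 2 each, and KC-N, KN-RM and blood in 0. For 6 of the 9, Ly6CLo-RM was the only list, with scores from 22 to 40, none above the list's median of 40.

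Nfkbiz encodes IkB-zeta, a nuclear IkB protein that is needed for a part of the late NF-kB targets. It had 22, 18, 13, 27, 25 and 19 peaks in the order KC-H, KC-N, KN-RM, Ly6CLo-RM, Ly6CHi-RM and blood, in 34 regions (gene at chr16:55811375-55838954), of which 21 lay outside the gene and the farthest 77.4 kb away. Its equal-length counts were 13, 13, 13, 21, 9 and 11. The region chr16:55822075-55822298, inside the gene, was shared by all lists with scores of 198, 107, 88, 159, 182 and 159. The regions chr16:55733861-55734096 and chr16:55776422-55776673, both outside the gene, were held by the 5 liver lists and not by blood.

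Tnfaip3 had the most regions of the 10 genes, 41, and 31 of them lay outside the gene (chr10:19000910-19015410), up to 92.6 kb away. Its peaks numbered 22 in KC-H, 26 in KC-N, 19 in KN-RM, 33 in Ly6CLo-RM, 22 in Ly6CHi-RM and 11 in blood. Blood was lowest by 8 peaks or more. In equal-length lists the counts were 13, 19, 19, 19, 8 and 7, so Ly6CHi-RM was then close to blood. Of its 41 regions, 30 were held by 1 or more liver lists and not by blood. Over all regions at protein-coding genes this class made up 30.4%, and it was not counted in equal-length lists. A region 46.8 kb outside the gene, chr10:19062081-19062391, was the best-scored shared one, with scores of 202, 152, 103, 163, 175 and 140.

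The regions of Tnfaip3 held by all 5 liver lists and not by blood were 4. At chr10:18943316-18943788 the scores were 75 (KC-H), 70 (KC-N), 45 (KN-RM), 31 (Ly6CLo-RM) and 40 (Ly6CHi-RM). At chr10:19011898-19012298, inside the gene and over its inner start, they were 38, 42, 26, 63 and 26. At chr10:19078119-19078370 they were 53, 43, 23, 71 and 38, and at chr10:19105023-19105278, 89.7 kb away, 36, 39, 31, 66 and 28. Ly6CLo-RM scores passed that list's median of 40 at the last 3 of the 4, while those of Ly6CHi-RM lay below its median of 46 at all 4.

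Tnfaip2 had its most peaks in KC-H, 13, and its fewest in Ly6CLo-RM, 6, where Nfkbia, Nfkbiz, Tnfaip3 and Traf1 had their most (chr12:111442450-111455018). The other counts were 10 in KC-N, 8 in KN-RM, 9 in Ly6CHi-RM and 8 in blood. Its equal-length counts were 8, 6, 8, 3, 4 and 2, with each F4/80-high list above the other 3, as at 16.9% of genes with 5 or more peaks. The region chr12:111444149-111444445 within the gene was held by all lists, with scores of 124 in KC-H, 54 in KC-N, 39 in KN-RM, 18 in Ly6CLo-RM, 31 in Ly6CHi-RM and 45 in blood, which lay above the list median in the F4/80-high lists and below it in the other 3.

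Traf1 had 2 peaks in KC-H, 7 in KC-N, 6 in KN-RM, 10 in Ly6CLo-RM, 6 in Ly6CHi-RM and 6 in blood (chr2:34941750-34961812). KC-H stood lowest of the 6 as deposited. In equal-length lists the counts were 2, 3, 6, 6, 4 and 1, and blood was lowest. Within the gene, chr2:34958138-34958385 was held by the 5 NASH lists, with scores of 20, 23, 80, 72 and 43 in the order KC-N, KN-RM, Ly6CLo-RM, Ly6CHi-RM and blood. Just outside it, chr2:34963481-34963929 had 28, 34, 89, 46 and 32. Only chr2:34944800-34945033 was held by all 6 lists, with 65 in KC-H, 76 in KC-N, 55 in KN-RM, 60 in Ly6CLo-RM, 76 in Ly6CHi-RM and 61 in blood.

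**Figure D2:**
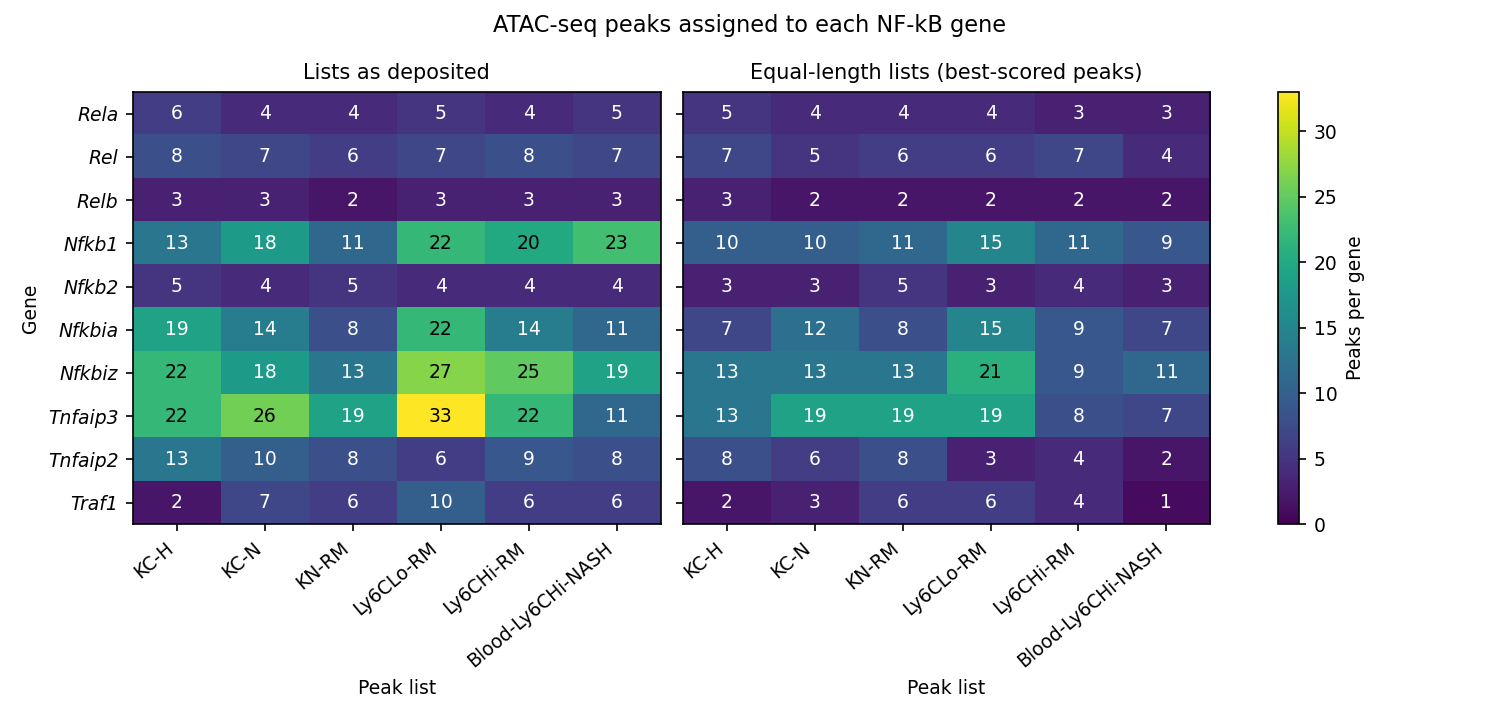
Number of peaks at each of the 10 genes in the 6 lists, as deposited and in equal-length lists of 34293 peaks. Tnfaip3, Nfkbia and Nfkbiz have their highest deposited counts in Ly6CLo-RM (33, 22 and 27), and Tnfaip2 in KC-H (13).

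**Figure D3:**
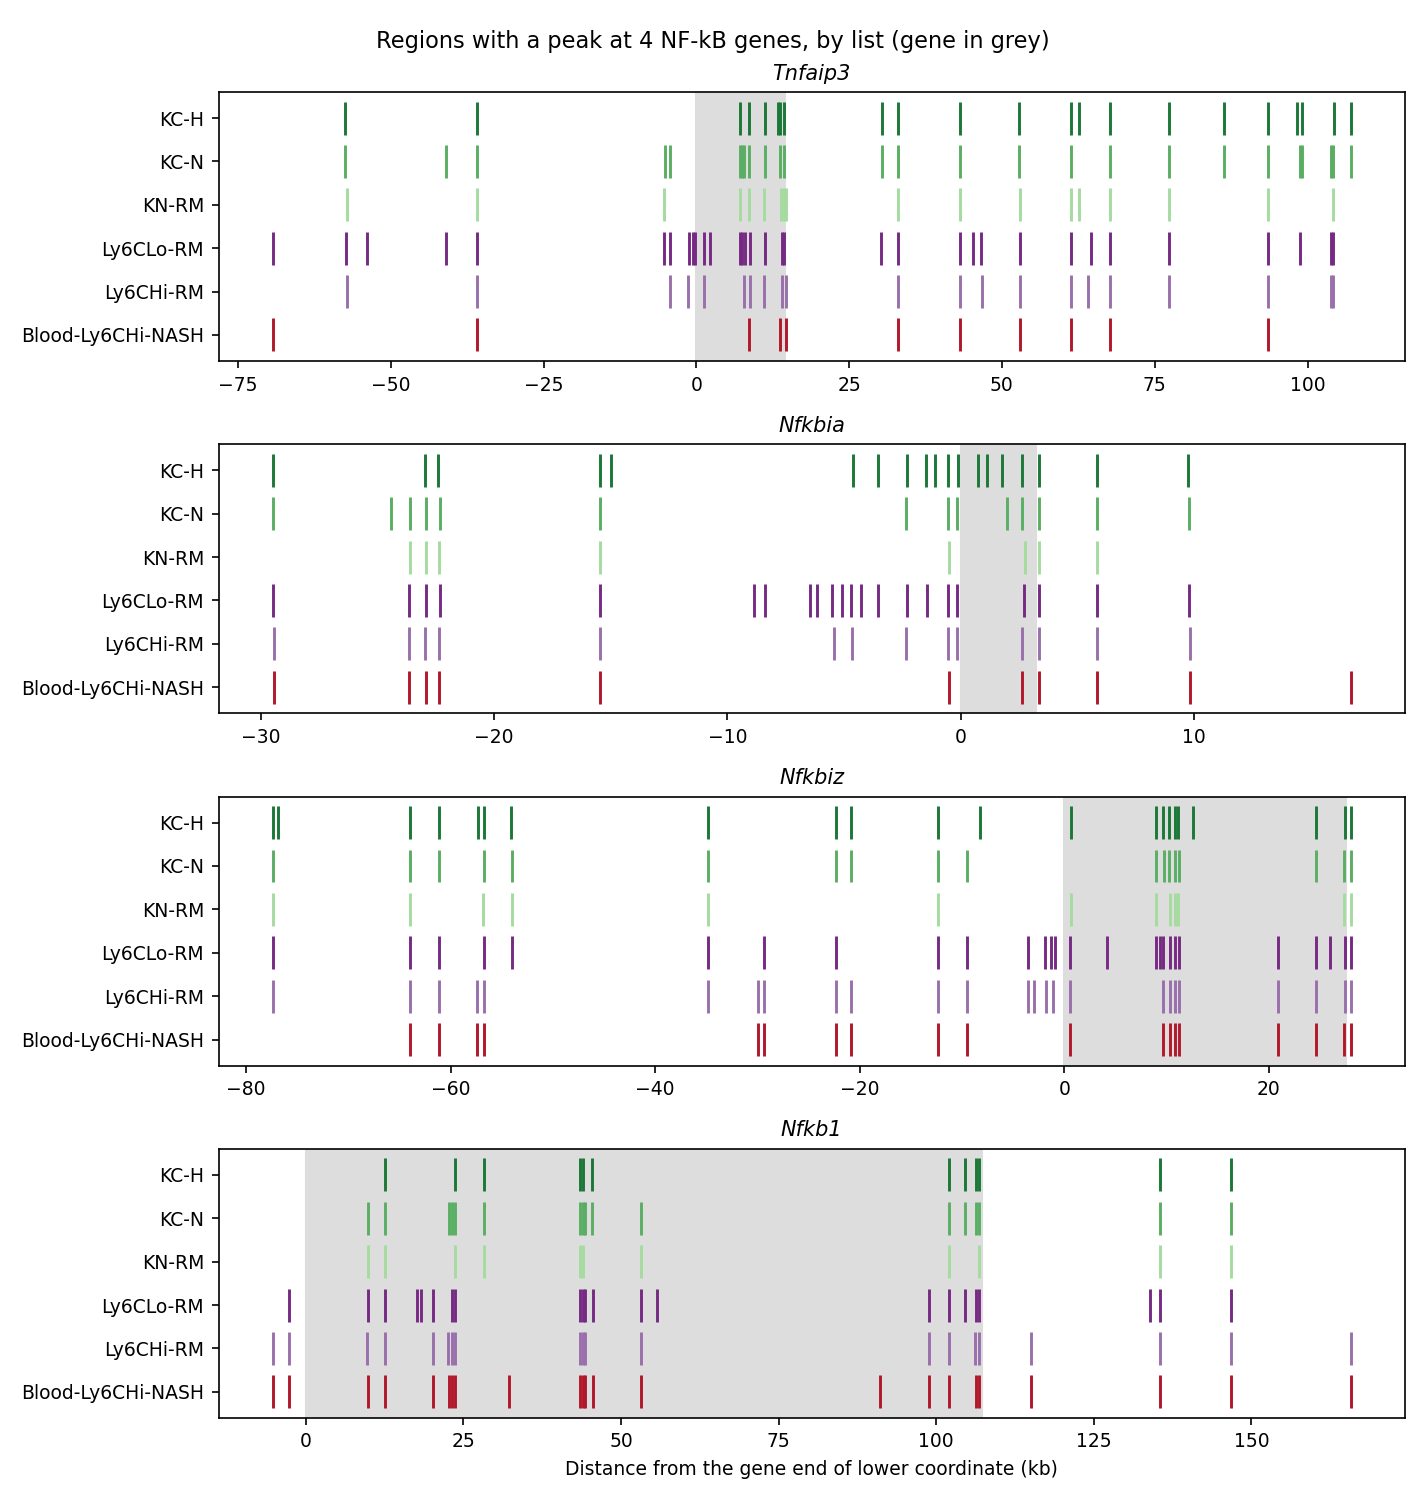
Position of the regions with a peak around Tnfaip3, Nfkbia, Nfkbiz and Nfkb1, 1 row per list, over the distance from the gene end of lower coordinate in kb, with the gene in grey and 1 tick per region and list. The row of blood has the fewest ticks at Tnfaip3 (11 peaks), and at Nfkbia the Ly6CLo-RM row has a cluster on the 3′ side where KC-N, KN-RM and blood have none.

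Membership across all 188 regions was set beside the same shares over all regions at protein-coding genes. All 6 lists held 50 of the 188 (26.6%), near the background of 25.9%, and 1 list alone held 53 (28.2%), near 27.3%. In the lists as deposited, the share of regions common to all lists was thus like that over all genes. In equal-length lists it was 34 of 123 (27.6%), below the 33.2% of all regions. Ly6CLo-RM held 139 (73.9%), against 54.9% of all regions, KN-RM 81 (43.1%) against 34.5%, and KC-N 110 (58.5%) against 50.6%. Blood was below its background, with 96 (51.1%) against 69.6%. KC-H with 111 (59.0%) against 63.5%, and Ly6CHi-RM with 112 (59.6%) against 61.7%, were near theirs. In equal-length lists, with 123 regions at these genes, Ly6CLo-RM held 94 (76.4%) against 61.0%, and blood 49 (39.8%) against 60.8%. Ly6CHi-RM was then below its background too, with 59 (48.0%) against 60.9%. KN-RM held 82 (66.7%) against 60.7%, KC-N 77 (62.6%) against 60.7% and KC-H 70 (56.9%) against 60.6%, so KC-N was then near its background.

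Ly6CLo-RM alone held 24 of the 188 regions (12.8%), against 3.89% of all regions, and 17 of 123 (13.8%) against 5.16% in equal-length lists. These were 6 at Nfkbia, 6 at Tnfaip3, 4 at Nfkb1, 4 at Nfkbiz, 3 at Traf1 and 1 at Rel. Their scores ran from 17 to 47 with a median of 25.5, and 1 of the 24, at Nfkb1, was above the list's median of 40. Over all 3708 regions held by Ly6CLo-RM alone the median score was 25 and 8.55% were above the list's median, so their scores were like those of such peaks in general. The other lists alone held 16 (KC-H, background 9.63%), 3 (KC-N, 2.10%), 2 (KN-RM, 0.254%), 3 (Ly6CHi-RM, 1.81%) and 5 (blood, 9.58%) of the 188, or 8.51%, 1.60%, 1.06%, 1.60% and 2.66%.

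Ly6CLo-RM and blood, at the top and bottom of the counts per 1000 peaks, were compared by region after those counts had been seen. Ly6CLo-RM and not blood held 58 of the 188 regions (30.9%), against 9.47% of all regions, of which 23 were at Tnfaip3, 12 at Nfkbia and 11 at Nfkbiz. Blood and not Ly6CLo-RM held 15 (7.98%) against 24.2%, of which 6 were at Nfkb1. In equal-length lists the counts were 50 of 123 (40.7%) against 15.1%, and 5 (4.07%) against 14.9%. At Tnfaip2 no region was held by Ly6CLo-RM and missing from blood in the lists as deposited. One or more liver lists held, and blood lacked, 92 of the 188 regions (48.9%), against 30.4%.

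Smaller classes lay at few of the genes. The 5 liver lists and not blood held 7 regions (3.72%, background 0.923%), at Tnfaip3, Nfkbiz and Rel. The 5 NASH lists and not KC-H held 6 (3.19%, background 0.836%), which were 2 each at Nfkb1 and Traf1 and 1 each at Nfkbia and Tnfaip2. The Nfkbia one, chr12:55465639-55465903, had scores of 43, 28, 52, 41 and 56, and its KC-N peak was centred 653 bp from a KC-H centre. The Tnfaip2 one was the upstream promoter region, where the KC-N peak was centred 229 bp from a KC-H centre. The 3 F4/80-high lists alone held 4 (2.13%), near the background of 1.84%, and blood with both CD11b-high lists alone held 6 (3.19%), below 5.67%. The 4 were 2 at Tnfaip2 and 1 each at Nfkb1 and Traf1 (chr2:34943785-34944017), and the 6 included chr16:55781935-55782160 at Nfkbiz with scores of 23, 41 and 56. Both CD11b-high liver lists alone held 7 (3.72%, background 1.33%), which were 3 at Tnfaip3, 3 at Nfkbiz and 1 at Nfkbia. KC-H and KC-N alone held 5 (2.66%, background 3.53%), of which 3 were at Tnfaip3, 71.8 to 92.6 kb from the gene.

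**Figure D4:**
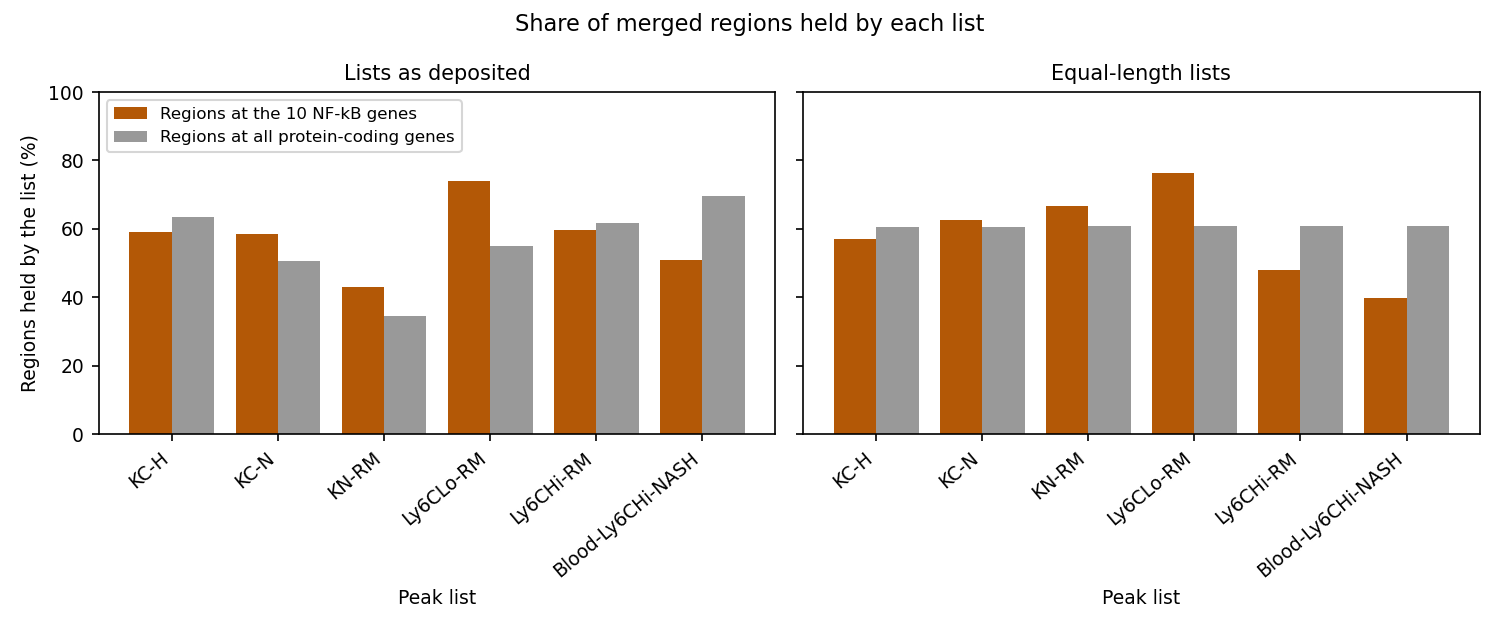
Share of the 188 regions of the 10 genes held by each list, in percent, beside the share over all regions at protein-coding genes. Ly6CLo-RM stands above its background (73.9% against 54.9%) and blood below it (51.1% against 69.6%).

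The comparisons of the design were described by 2 counts. A gene was called for a list that had at least 2 times the peaks of the other list there, and at least 5 more. Shares of genes called were taken among those with 5 or more peaks in either list, here termed eligible. A peak was called list-specific when it was in the better-scored 50% of its list and no peak of the other whole list overlapped it. Each share in brackets is that over all genes or high-scoring peaks.

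For the diet comparison in Tim4-positive Kupffer cells, 9 of the 10 genes were eligible. Of these, 0 were called for KC-H (background 6.11%) and 1, Traf1 with 7 peaks against 2, for KC-N (0.684%). In equal-length lists 0 of 7 eligible genes were called in either direction (0.998% for KC-H, 1.86% for KC-N). List-specific peaks were 3 of 59 in KC-H (5.42%) and 3 of 59 in KC-N (3.64%), both close to the shares over all genes. Those of KC-H were 1 at Nfkbia and 2 at Tnfaip2, all within 446 bp of a KC-N peak centre. Those of KC-N were the upstream Tnfaip2 promoter peak and 1 at Nfkbia, 229 and 653 bp from a KC-H centre, and 1 at Tnfaip3. The Tnfaip3 one, chr10:18995624-18995824 (score 51), had its nearest KC-H centre 12326 bp away.

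Between Tim4-positive and Tim4-negative F4/80-high cells of NASH mice, 0 of 8 eligible genes were called for KC-N (11.4%) and 0 for KN-RM (0.0626%). List-specific peaks were 3 of 59 in KC-N (6.23%) and 4 of 46 in KN-RM (0.963%). All 4 of KN-RM were 229 to 320 bp from a KC-N centre and so were neighbouring summits, at Tnfaip3, Tnfaip2 and Nfkb2. Of the 3 in KC-N, chr16:55788942-55789142 at Nfkbiz (score 50) was 9977 bp from the nearest KN-RM centre.

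Between blood monocytes and Ly6C-high liver macrophages, 1 of 8 eligible genes was called for Ly6CHi-RM, as were 12 of 4983 genes (0.241%). It was Tnfaip3, with 22 peaks against 11. In equal-length lists it had 8 against 7, and 0 of 5 eligible genes were called (0.554%). For blood 0 were called, as deposited (1.20%) and at equal length (0.600%). List-specific peaks were 0 of 51 in blood (2.16%) and 3 of 54 in Ly6CHi-RM (1.64%). The intronic or exonic position of chr11:23754378-23754578 at Rel (score 50), one of the 3, was not determined; its nearest blood centre was 8429 bp away. The other 2, at the Rel start and in Traf1 (chr2:34958639-34958839), were 233 and 468 bp from a blood centre.

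Between the CD11b-high macrophages, 0 of 8 eligible genes were called as deposited, for Ly6CHi-RM (2.36%) or for Ly6CLo-RM (0.528%). In equal-length lists 6 were eligible and 0 were called for Ly6CHi-RM (0.823%). Nfkbiz (21 peaks against 9) and Tnfaip3 (19 against 8) were then called for Ly6CLo-RM, as were 1.24% of all genes. List-specific peaks were 3 of 54 in Ly6CHi-RM (3.81%) and 3 of 69 in Ly6CLo-RM (2.89%). In Ly6CHi-RM they were the Tnfaip3 promoter summit and 2 at the Rel start, of which chr11:23771283-23771483 had a score of 147 and a Ly6CLo-RM centre 239 bp away. In Ly6CLo-RM they were its own Tnfaip3 summit, chr2:34961520-34961720 in Traf1 (score 43) and chr3:135602835-135603035 in Nfkb1 (score 47), the last 2 of these 1452 and 1899 bp from a Ly6CHi-RM centre.

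Between Ly6C-low macrophages and Tim4-negative Kupffer cells the list lengths differ most of the 5 comparisons. Of 9 eligible genes, Nfkb1 (22 peaks against 11), Nfkbia (22 against 8) and Nfkbiz (27 against 13) were called for Ly6CLo-RM, where 21.5% of all genes were. In equal-length lists 0 of 8 eligible genes were called for it (3.48%). For KN-RM 0 were called as deposited (0.562%), and at equal length Tnfaip2 was, with 8 against 3 (4.21%). List-specific peaks were 15 of 69 in Ly6CLo-RM (18.5%), near the background, and 7 of 46 in KN-RM (5.23%). At equal length there were 2 in Ly6CLo-RM and 11 in KN-RM. The share over all peaks was not computed there, so this reversal is not read as a result about these genes. Of the 15, 9 were over 1000 bp from any KN-RM centre, among them chr3:135602835-135603035 in Nfkb1, chr10:19002119-19002319 in Tnfaip3 (score 48, 5801 bp) and chr16:55788924-55789124 at Nfkbiz (score 44, 9995 bp). Of the 7 in KN-RM, 6 were shifted summits within 304 bp and the other, chr2:34943785-34943985 in Traf1 (score 52), was 1033 bp away.

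Ly6C-low macrophages and blood were the pair added after the counts had been seen. Of 8 eligible genes, Nfkbia (22 against 11) and Tnfaip3 (33 against 11) were called for Ly6CLo-RM, against 0.902% of all genes. In equal-length lists Nfkbia (15 against 7), Tnfaip3 (19 against 7) and Traf1 (6 against 1) were, of 6 eligible genes, against 3.24%. For blood 0 were called as deposited (8.98%) and at equal length (2.36%).

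The wider pathway was taken as 69 further genes: 21 receptors and adaptors, 11 kinases, 4 other IkB family genes, 13 other negative regulators and 20 known targets. They had 675 regions, of which 228 (33.8%) were held by all lists, against 25.9% of all regions at protein-coding genes. Their peaks numbered 457 in KC-H, 429 in KC-N, 321 in KN-RM, 448 in Ly6CLo-RM, 464 in Ly6CHi-RM and 427 in blood. Per 1000 peaks this was 7.20, 8.49, 9.36, 8.20, 7.55 and 6.13, with blood lowest, as at the 10 genes, but with KN-RM highest in place of Ly6CLo-RM. By the same rule, 1 of 44 pathway genes was called for Ly6CLo-RM over blood, Gadd45b (0.902% of all genes), and 3 for blood, Map3k7, Commd1 and Vcam1 (8.98%). At equal length 2 of 31 were called for Ly6CLo-RM, Map3k8 and Nfkbie (3.24%), in place of Gadd45b, and 0 for blood (2.36%). For Ly6CLo-RM over KN-RM 6 of 39 were called, Irak3, Birc3, Ikbkb, Tnip1, Tnip3 and Socs1, a share of 15.4% below the 21.5% of all genes. At equal length 0 of 33 were (3.48%). Vcam1 was also called for KC-N over KN-RM (1 of 36, against 11.4%), for Ly6CHi-RM over Ly6CLo-RM (1 of 43, against 2.36%) and for KN-RM over Ly6CLo-RM (1 of 39, against 0.562%). At equal length the last of these calls was made (1 of 33, against 4.21%) and the other two were not. In the other 6 directions of the 6 pairs 0 were called, as deposited and at equal length.

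Among receptors and adaptors Irak2, a kinase-like adaptor of interleukin-1 and Toll-like receptors, had 16, 21, 14, 21, 22 and 16 peaks in the order KC-H, KC-N, KN-RM, Ly6CLo-RM, Ly6CHi-RM and blood. Among kinases Map3k8 had the most regions, 32, with 21, 21, 11, 17, 18 and 17 peaks. Map3k14, the kinase that starts the noncanonical branch, had 9, 8 and 7 peaks in the F4/80-high lists and 12, 16 and 15 in the others. Ikbkb, the catalytic subunit of the IkB kinase, had 8, 6 and 4, then 12, 10 and 12. These 2 kinases were named for their large difference between the list classes. Their order, each CD11b-high or blood list above each F4/80-high list, was that of 20.4% of all genes. Among negative regulators Zc3h12a, an RNase that degrades cytokine mRNAs, had 15, 13, 11, 15, 20 and 15. Among targets Il12b, a cytokine subunit, had 15, 12 and 9, then 8, 7 and 7, and Vcam1, an adhesion molecule, had 13, 13 and 5, then 0, 5 and 6. Il12b and Vcam1 were likewise named for their large difference between the list classes. The order at Il12b, each F4/80-high list above the other 3, was that of 2.78% of genes with 5 or more peaks in any list, and Vcam1 did not have it.

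Of 823 protein-coding genes with 20 or more regions, the 5 whose peaks per 1000 varied across the 6 lists most like the sum over the 10 genes were Pmaip1 (Pearson r of 0.983), Ier5 (0.954), Gm4832 (0.935), Rapgef1 (0.932) and H2-Eb1 (0.930). These r values describe 6 points that share list length and depth, and no p was computed. Pmaip1, a pro-apoptotic gene, had 16, 17, 14, 22, 18 and 14 peaks, and Ier5, an immediate early gene, had 23, 23, 18, 29, 27 and 24.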

How the data were processed

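The 12 ATAC-seq libraries came from sorted mouse cells, and the authors deposited 1 peak list per group of 2 libraries. Bowtie2, HOMER, DESeq2 and the builds mm10 and GRCm38 are named in the submitters' processing notes. What each did, and read filters, transposase read shifts and library depths, is not given in the sources used here. Deposited rows give each peak a signal, which is the authors' normalized tag count, and a score from the authors' pipeline, with no header. Both are the authors' own values and were used to rank and describe peaks within a list.

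Nearly all peaks were 200 bp wide. Coordinates are as the lists give them; whether starts count from 0 or 1 is not stated. Genes were placed by a GRCm38.p6 table from RefSeq, which has no exons or introns, so positions within a gene are not annotated further. A peak was counted for the gene around its centre (by the nearer gene end where genes overlap), otherwise for the nearest protein-coding gene within 100 kb. Peaks overlapping by 1 bp or more were merged. Ties in score were ordered by tag count. Promoter windows and sequences came from RefSeq (GRCm38.p6). With 1 list per group there is no test and no replicate error. The text names all 10 genes, per gene the best-scored region shared by all lists, list-specific regions, and regions of the smaller membership classes; pathway genes are those with the most regions or the largest difference between list classes, and marker genes are named for their known cell types. The clusters of regions at Nfkbia and the comparison of Ly6CLo-RM with blood were chosen after their values were seen. The genes, lists, thresholds and rules were chosen with earlier results of these data known. The result of 1 marker list is not reported here. The scripts were tested on simulated lists. Scripts ran under Python 3.11.15 (pandas 2.3.3, numpy 2.4.6, matplotlib 3.10.9).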

Additional observations from a re-analysis of the deposited data

How the results depend on the processing

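Counts at the 10 genes stayed within 1.5 times with a gene window of 1000 kb and with assignment to the nearest gene end, as did the 10 list-specific counts, the only ones ranked so, under ranking by tag count. In equal-length lists the peaks at the genes became 71 (KC-H), 61 (Ly6CHi-RM) and 49 (blood), all regions 123, regions in 1 list 32, in blood and both CD11b-high lists alone 2, in the 5 liver lists and not blood 4, and in the 5 NASH lists and not KC-H 3. List-specific peaks became 1 (KC-H, not KC-N), 1 (Ly6CHi-RM, not blood), 5 (Ly6CLo-RM, not Ly6CHi-RM), 2 (Ly6CLo-RM, not KN-RM) and 11 (KN-RM, not Ly6CLo-RM). For counts of a gene in a list, 24 of 60 moved at equal length and 14 of 60 with a window of 20 kb, which left 2 regions in the 5 liver lists and not blood. With regions merged within 200 bp, the F4/80-high lists alone held 2. The better-scored 50% of every list gave 98 regions, 31 in all 6 lists, 25 in 1 list, 13 in Ly6CLo-RM alone, 1 in the liver lists and not blood, and 2 in the NASH lists and not KC-H.

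List-specific peaks are given as KC-H then KC-N, KC-N then KN-RM, blood then Ly6CHi-RM, Ly6CHi-RM then Ly6CLo-RM, and Ly6CLo-RM then KN-RM. With an overlap of 50% they were 6 and 6, and 8 and 7, with 1 in blood and not Ly6CHi-RM. Counting only peaks with no centre of the other list within 1000 bp, they were 0 and 1, 1 and 0, 1 in Ly6CHi-RM and not blood, 0 in Ly6CHi-RM and not Ly6CLo-RM, and 9 and 1. From all peaks they were 25 and 23, 38 and 9, 10 and 28, 14 and 40, and 69 and 11. From the best-scored 25% they were 1 and 1, 0 and 0, 1 in Ly6CHi-RM and not blood, 1 in Ly6CLo-RM and not Ly6CHi-RM, and 2 and 4. A shorter list holds fewer peaks by construction. A list-specific count can also rise, because peaks cut from the other list and overlaps under 50% no longer count as shared. For list-specific peaks under these settings the share over all genes was not computed, and other causes were not tested.

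No paired analysis was possible because each group has 1 list made from both libraries, and no replicate was left out for the same reason. Absence is relative to each list's threshold, and depth per library was not used here.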
